A study of Mus musculus with 52 samples.

Results

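Gene expression in bone marrow stromal cell cultures treated for 4 days with tributyltin was set against that in sister cultures treated with rosiglitazone. The arrays were taken by the endings of the sample titles, D4TBT and D4Rosi, which gave 4 and 4 arrays, 8 of the 52 in the series. The marrow came from female C57BL/6J mice aged 8 weeks, and the cells of 2 to 4 animals were pooled before plating, with each pool counted as 1 experiment. The numbers 12, 15, 19 and 20, which titles and source names share across groups, were read as these pools, each with 1 array in each group. From 7 days after plating, all cultures received osteoinductive medium with ascorbate, β-glycerol phosphate, insulin and 10 nM dexamethasone. The TBT group received tributyltin at 80 nM and the Rosi group rosiglitazone at 100 nM, so the doses differ. The LG268 group (LG100268, 100 nM) and the vehicle group (DMSO at 0.1%), of the same 4 pools and the same day, are used here to place the values of both. The p-values rest on the spread between pools within a group, as far as that reading holds. For each gene that spread was estimated over all 13 groups, not from the TBT and Rosi arrays alone. The main fit had no term for the pool, although the same 4 pools recur in every group.

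Rosiglitazone is a thiazolidinedione drug that activates PPARγ, the nuclear receptor that directs fat cell formation and opposes bone formation in marrow stroma. PPARγ acts as a dimer with RXR, which also pairs with the oxysterol receptor LXR and the retinoic acid receptors. Tributyltin, an organotin once used in antifouling paint, is known to activate both PPARγ and RXR, and LG100268 is a synthetic ligand of RXR alone. The comparison asks how 2 ligands that both reach PPARγ differ in the genes they leave higher or lower in cultures kept in bone-forming medium.

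At day 4, 5681 of 14911 genes tested differed between TBT and Rosi at a limma adjusted p under 0.05 (38.1%), of which 2993 were higher with TBT (20.1%) and 2688 were lower (18%). The median difference over all genes was 6.1e-05 on the log2 scale. The 4 TBT arrays lay wholly above or below the 4 Rosi arrays for 4535 genes (30.4%). Within pools, 5216 of the 5681 differences had the same sign in 4 of 4 pools. Array medians of the 52 arrays ran from 3.97 to 4.15. The Rosi array of pool 15 stood apart: it was the Rosi array nearest the TBT mean for 61.2% of the called genes, against 24.8%, 7.87% and 6.07% for pools 12, 19 and 20. Without that array 6352 genes were called. Against vehicle, 2990 genes differed with TBT (20.1%, with 10.6% higher and 9.42% lower) and 7316 with Rosi (49.1%, with 21.3% higher and 27.7% lower). The TBT count was 1497 without pool 19 and 1306 without pool 20. Counts of list members given below stand beside the shares of all genes given here.

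**Figure D1:**
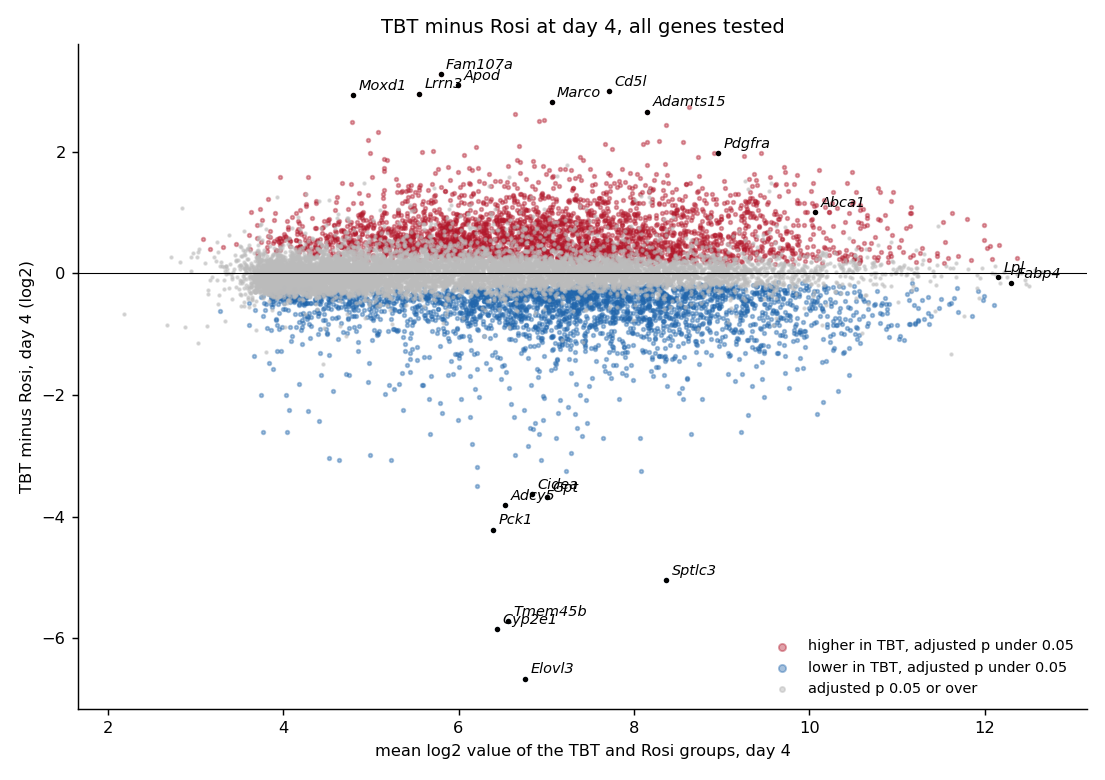
TBT minus Rosi at day 4 (log2, y axis) against the mean log2 value of both groups (x axis) for all 14911 genes tested. Each point is a gene: red points are the 2993 called higher in TBT, blue points the 2688 called lower, and grey points were not called. The largest differences, down to Elovl3 at -6.66, lie below 0, while Lpl and Fabp4 lie near 0 at the high end of expression.

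The fat cell genes that differed between the groups were lower with TBT, while Fabp4, Lpl and Adipoq did not pass the test. Of 24 adipocyte genes tested, 13 were lower with TBT and 0 higher, with a median difference of -0.80. Fabp4, the fatty acid carrier of fat cells, had log2 values of 12.10, 12.16, 12.31 and 12.32 in the TBT arrays of pools 12, 15, 19 and 20, against 12.26, 12.49, 12.40 and 12.41 in the Rosi arrays. The groups overlapped, and the difference of -0.17 was not called (95% interval -0.57 to 0.23, limma adjusted p = 0.543). Lipoprotein lipase, Lpl, differed by -0.07 (-0.26 to 0.13) and the hormone adiponectin, Adipoq, by -0.07 (-0.73 to 0.59). Angptl4 and Pdk4, direct PPAR targets of lipid handling and glucose sparing, differed by 0.12 (-0.23 to 0.48) and -0.04 (-0.41 to 0.32), and the desaturase Scd1 by -0.18 (-0.74 to 0.38). None of these was called, and the intervals still admit differences of up to 0.74 on the log2 scale. Fabp4, Lpl and Scd1 were lower with TBT in 4 of 4 pools, and for Scd1 the groups did not overlap. Adipoq and Pdk4 were higher with TBT in 2 pools and Angptl4 in 3. Of the 24 adipocyte genes 1 had a positive difference. For 16 the TBT arrays lay wholly below the Rosi arrays, against 15.2% of all genes. In bulk cultures, fewer fat cells and less of a transcript in each fat cell cannot be told apart.

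Other fat cell genes were called, although Cd36 and Pparg lost the call in some fits. Cd36, the fatty acid translocase, had log2 values of 11.31, 11.30, 11.49 and 11.41 with TBT, against 11.88, 11.81, 11.90 and 11.87 with Rosi. Every TBT array lay below every Rosi array, and the difference was -0.49 (SE 0.16, limma adjusted p = 0.0123), although the adjusted p was 0.0543 without pool 19 and 0.0843 without pool 20. Pparg itself was lower with TBT by a small amount, at 9.53, 9.68, 10.06 and 9.90 with TBT against 10.27, 9.90, 10.23 and 10.29 with Rosi. That difference of -0.38 (SE 0.14, limma adjusted p = 0.0237) was lost without pool 12 (0.195) or pool 20 (0.104), and the TBT array of pool 19 lay above the Rosi array of pool 15. Its partner Rxra differed by -0.08 and was not called (95% interval -0.25 to 0.10). Lep, which encodes leptin, had log2 values of 3.10, 3.21, 2.89 and 3.55 with TBT and 6.20, 5.48, 5.51 and 5.30 with Rosi, a difference of -2.43 (SE 0.37, limma adjusted p = 9.27e-07). Leptin in all TBT arrays was thus below the table's median of 4.05, as it was in the vehicle arrays. Trarg1, which traffics the insulin-responsive glucose transporter, was lower with TBT (difference -1.29, adjusted p = 1.52e-06).

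The lipid droplet coats Plin1 and Cidec varied more between pools. Plin1 had log2 values of 9.39, 9.98, 10.54 and 10.56 with TBT, against 11.18, 10.90, 11.20 and 11.10 with Rosi, and Cidec had 10.10, 10.93, 11.42 and 11.36 with TBT against 12.38, 12.03, 12.31 and 12.39 with Rosi. All TBT arrays were below all Rosi arrays for both genes, with TBT pool 12 lowest. In the fit over all groups the differences of -0.98 and -1.32 had limma adjusted p = 0.0639 and 0.196. With the pool as a block these were 0.00967 for Plin1 and 0.0639 for Cidec. Over 12 alternative fits Plin1 was called in 3 and Cidec in 1. Their limma adjusted p ran from 0.00967 to 0.175 and from 0.00702 to 0.327. Against vehicle, 21 of the 24 adipocyte genes were higher with TBT (median 2.12) and all 24 with Rosi (median 3.47). Both of those comparisons use the same vehicle arrays.

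**Figure D2:**
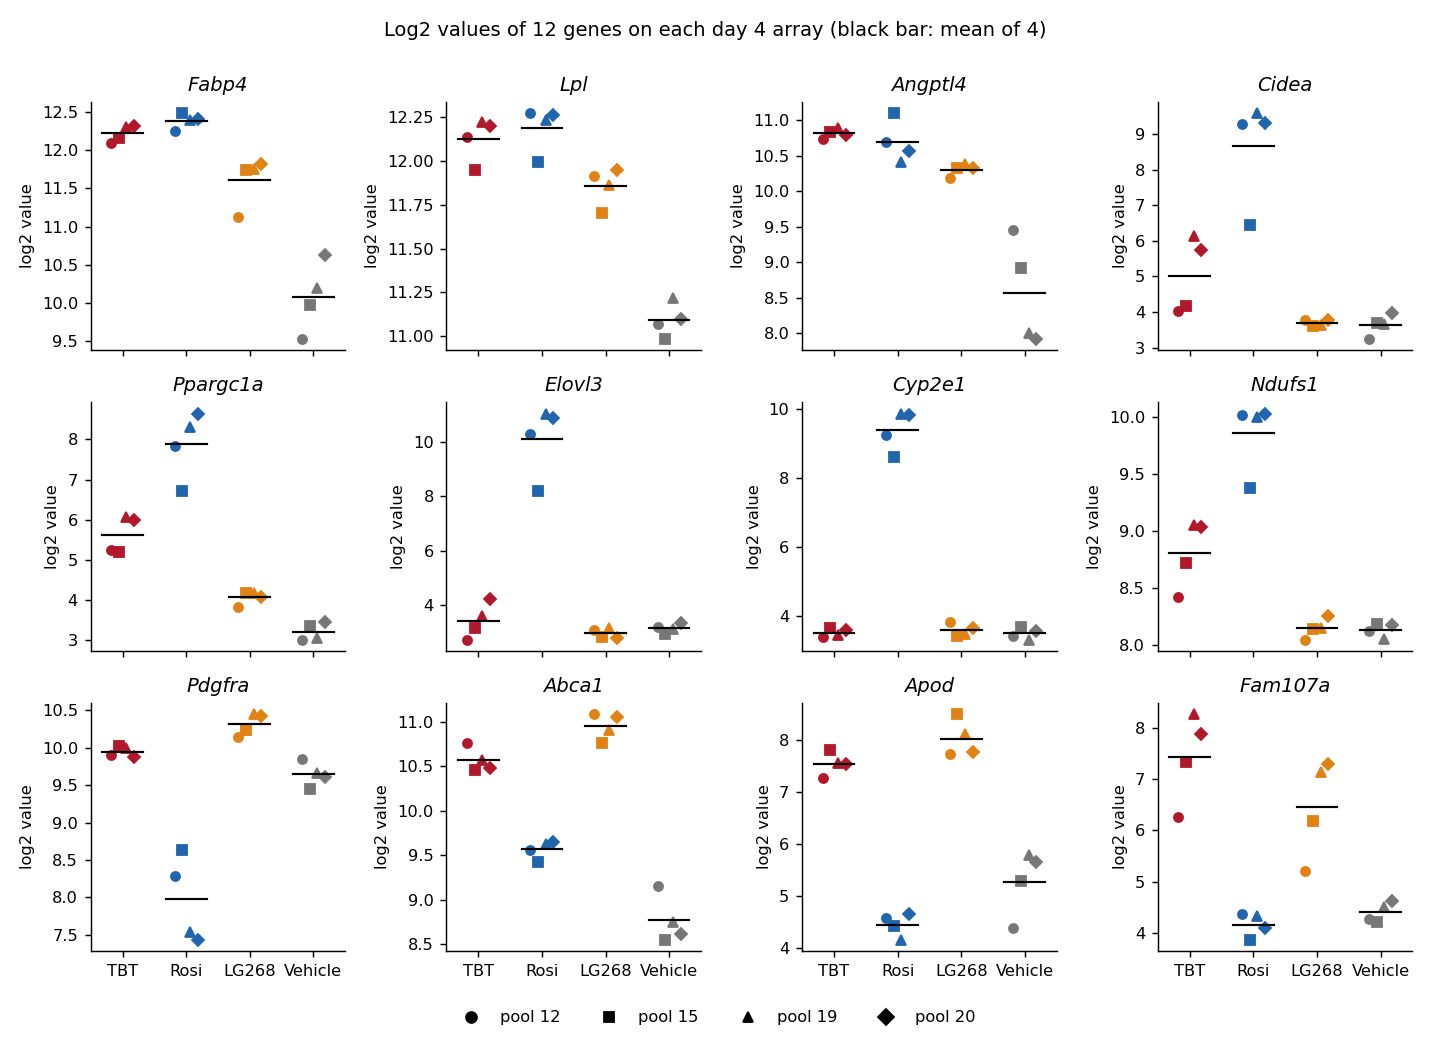
Log2 values of 12 genes (y axis of each panel) on every day 4 array, in the order TBT, Rosi, LG268 and vehicle. Each symbol is 1 array, its shape gives the pool, and the black bar is the mean of 4. Fabp4, Lpl and Angptl4 overlap between TBT and Rosi. Elovl3, Cyp2e1 and Ppargc1a are lower with TBT, and Pdgfra, Abca1, Apod and Fam107a are higher.

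Genes of heat-producing fat cells showed the widest gap. Of 16 thermogenic genes tested, 10 were lower with TBT and 1 was higher, with a median of -1.27. Elovl3, a fatty acid elongase of brown and beige fat, had log2 values of 2.73, 3.17, 3.59 and 4.21 with TBT and 10.28, 8.18, 11.03 and 10.87 with Rosi. The vehicle arrays ran from 2.94 to 3.33, with TBT arrays on both sides of that range, and every Rosi array lay far above every TBT array. The difference of -6.66 (SE 0.53, limma adjusted p = 6.52e-13) was the largest of the named genes and corresponds to a 101-fold lower value. The TBT arrays of pools 12, 15 and 19 were below the table's median, and whether such values lie above background was not tested.

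Cidea, a lipid droplet protein that marks brown fat, was intermediate with TBT, at 4.03, 4.18, 6.14 and 5.73, against 9.29, 6.45, 9.58 and 9.30 with Rosi. Pools 19 and 20 carried the higher TBT values and Rosi pool 15 the lowest Rosi value, and the groups did not overlap (difference -3.64, SE 0.48, adjusted p = 8.28e-08). Ppargc1a, the coactivator that drives mitochondrial biogenesis, had 5.25, 5.20, 6.06 and 6.00 with TBT, against 7.84, 6.71, 8.31 and 8.64 with Rosi, a difference of -2.24 (SE 0.30, limma adjusted p = 1.32e-07). The TBT arrays nevertheless stood 2.41 above vehicle on average (adjusted p = 1.1e-07), so this gene was higher with both ligands and more so with Rosi. Ppara, the fatty acid oxidation receptor, was lower with TBT (-2.46), as was the proton channel Otop1 (-1.93). Ucp1, the uncoupling protein itself, was low throughout: 3.24, 3.41, 3.81 and 3.56 with TBT and 4.70, 3.12, 5.00 and 4.59 with Rosi. The groups overlapped through Rosi pool 15, and the difference of -0.85 (adjusted p = 0.000687) was not called in a fit of the 8 arrays alone (adjusted p = 0.113). Elovl6, which lengthens palmitate, was the 1 thermogenic list member that was higher with TBT, by 1.07 (SE 0.22, adjusted p = 0.00015).

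Mitochondrial and peroxisomal oxidation genes were lower with TBT almost without exception. All 23 respiratory chain genes tested were lower, with differences between -1.34 and -0.44 and a median of -0.96. Ndufs1, a core subunit of complex I, had log2 values of 8.42, 8.72, 9.05 and 9.04 with TBT, against 10.02, 9.38, 10.00 and 10.03 with Rosi. No TBT array reached the lowest Rosi array, that of pool 15, and the difference was -1.05 (SE 0.14, limma adjusted p = 6.58e-08). Cox4i1, of complex IV, was also lower (-1.13, adjusted p = 5.56e-09). In every one of the 23 genes the 4 TBT arrays lay below the 4 Rosi arrays, against 15.2% of all genes. Against vehicle, 15 of the 23 were higher with TBT (median 0.44) and 23 with Rosi (median 1.34).

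The same direction held along the pathways that feed the respiratory chain. Of 18 citric acid cycle genes 16 were lower and 0 higher (median -0.86), among them Suclg1, a subunit of succinyl-CoA ligase (-1.08). Of 20 genes of branched-chain amino acid breakdown 19 were lower and 0 higher (median -0.84). Bckdhb, a subunit of the dehydrogenase that commits these amino acids to breakdown, had log2 values of 6.92, 7.46, 7.87 and 7.88 with TBT, against 9.72, 9.10, 9.80 and 9.78 with Rosi. The groups did not overlap, and the difference was -2.07 (SE 0.21, limma adjusted p = 4.29e-10). Dbt, another subunit of that complex, was lower too (-1.65).

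Of 23 fatty acid oxidation genes 20 were lower and 1 higher (median -0.95). Ucp3, a mitochondrial carrier of muscle and brown fat, was lower (-2.07), as was the electron transfer flavoprotein subunit Etfa (-1.01). The exception was Cpt1a, the enzyme that admits fatty acids to mitochondria, named here after its values were seen. Cpt1a had log2 values of 9.32, 9.19, 9.11 and 9.06 with TBT and 8.15, 8.52, 8.02 and 8.00 with Rosi. All TBT arrays were above all Rosi arrays, by 1.00 on average (SE 0.15, limma adjusted p = 7.65e-07). Of 20 peroxisome genes 16 were lower and 0 higher (median -0.79). They included Pex16, which builds peroxisome membranes, (-1.67), the thiolase Acaa1b (-2.46) and the bifunctional enzyme Hsd17b4 (-1.08).

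**Figure D3:**
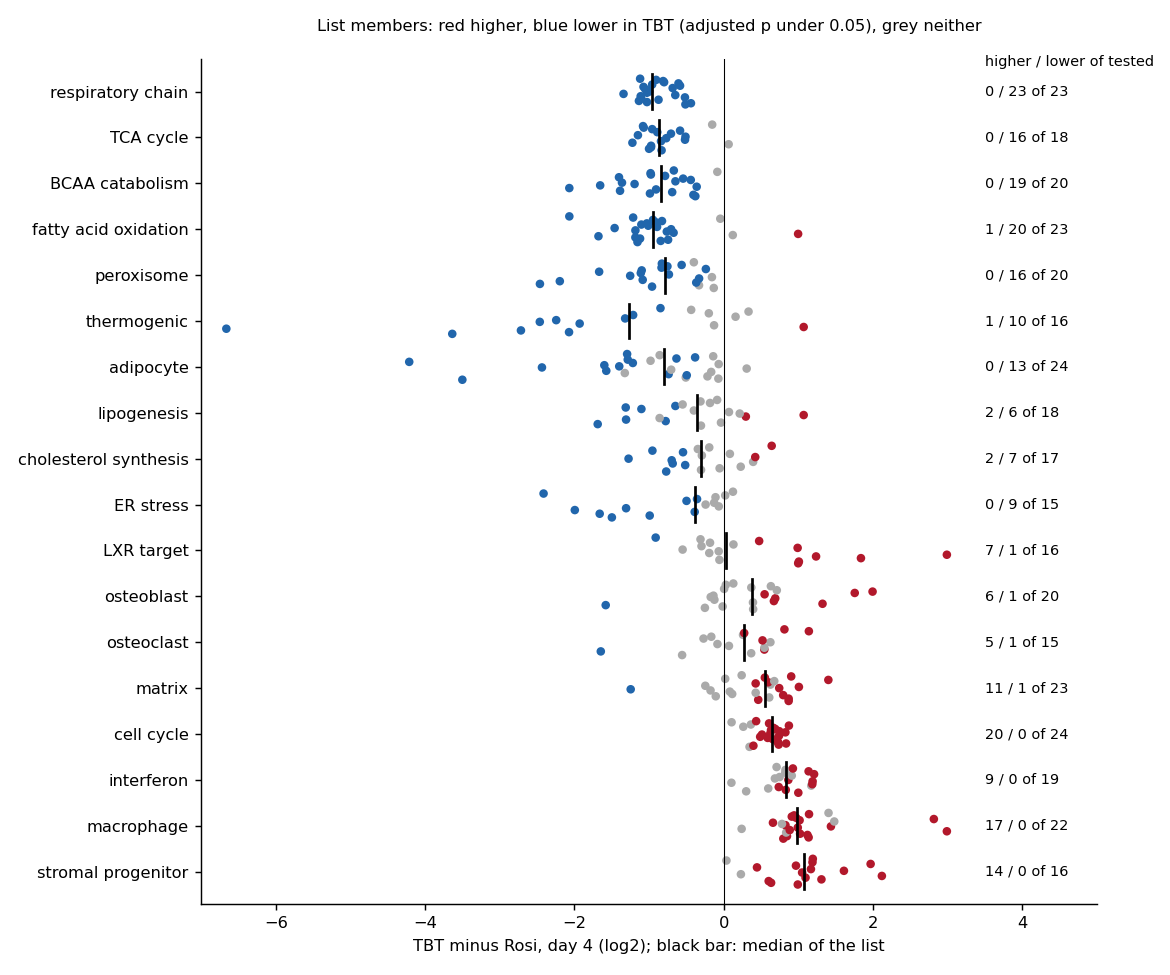
TBT minus Rosi at day 4 (log2, x axis) for each tested member of 18 gene lists (y axis). Each point is a gene, red where called higher in TBT, blue where called lower and grey where neither, the black bar is the list's median, and the counts are printed at the right. The respiratory chain has 23 of 23 members in blue, and the stromal progenitor list has 14 of 16 in red.

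Genes of lipid synthesis split. Of 18 lipogenesis genes 6 were lower and 2 higher (median -0.35), and without pool 12 only 3 were lower. The lower ones included the enzymes that assemble triglyceride, Dgat1 (-1.31), Lpin1 (-1.31) and Gpam (-1.10). Srebf1, the transcription factor of fatty acid synthesis, was not called at -0.31 (95% interval -0.70 to 0.08). Of 17 cholesterol synthesis genes 7 were lower and 2 higher (median -0.30). The lower ones were 5 to 8 with a pool left out and 5 in a fit of the day 4 arrays alone. They were 11 when only the Rosi array of pool 15 was left out. Lss, which closes the sterol ring, was lower (-1.27, adjusted p = 6.87e-05). Srebf2, the transcription factor that drives that pathway, was higher by 0.64 (SE 0.10, limma adjusted p = 1.61e-06).

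The 10 largest negative differences also took in genes of other functions. Cyp2e1, a cytochrome P450 that oxidises ethanol and fatty acids, had log2 values of 3.40, 3.65, 3.44 and 3.58 with TBT, against 9.22, 8.61, 9.85 and 9.80 with Rosi. The TBT arrays were all below the table's median and close to the vehicle arrays, which ran from 3.31 to 3.68. The difference was -5.86 (SE 0.32, limma adjusted p = 1.49e-17). Tmem45b, a transmembrane protein, showed the same shape, at 3.42, 3.80, 3.88 and 3.73 with TBT and 9.24, 8.48, 10.00 and 9.97 with Rosi (difference -5.72, SE 0.42, adjusted p = 7.74e-14). Pck1, of the adipocyte list, which makes glycerol backbones in fat cells, had 4.08, 4.26, 4.34 and 4.46 with TBT and 8.85, 6.93, 9.50 and 8.72 with Rosi (difference -4.21, SE 0.37, adjusted p = 8.35e-12). Cyp2e1, Tmem45b and Pck1 were higher than in vehicle cultures with Rosi, by 5.88, 5.57 and 4.16, while the TBT differences from vehicle, 0.02, -0.14 and -0.05, were not called.

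Sptlc3, a subunit of the enzyme that starts sphingolipid synthesis, was of another kind, since TBT raised it partway. Its log2 values were 4.63, 5.77, 6.78 and 6.22 with TBT, against 10.81, 10.62, 11.06 and 11.09 with Rosi. TBT pool 12 was lowest, and the difference was -5.04 (SE 0.52, limma adjusted p = 4.53e-10). Against vehicle it was higher by 2.29 with TBT (adjusted p = 0.0013) and by 7.33 with Rosi (adjusted p = 5.4e-15). The others were Adcy5, an adenylyl cyclase, (-3.81), Gpt, an alanine transaminase (-3.68), the activin receptor Acvr1c (-3.50), and Egln3, a prolyl hydroxylase of the oxygen-sensing pathway (-3.25).

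The 10 largest positive differences were between 2.50 and 3.27. Fam107a, an actin-associated stress protein, had log2 values of 6.25, 7.32, 8.27 and 7.89 with TBT, against 4.36, 3.86, 4.32 and 4.09 with Rosi. Every TBT array was above every Rosi array, by 3.27 on average (SE 0.32, limma adjusted p = 1.35e-10). Apod, a lipocalin that carries lipids, had 7.26, 7.81, 7.55 and 7.54 with TBT and 4.57, 4.42, 4.15 and 4.65 with Rosi (difference 3.10, SE 0.23, adjusted p = 1.4e-13). Apod was also lower with Rosi than in vehicle cultures, by 0.83 (adjusted p = 0.0029), and higher with TBT than in vehicle cultures by 2.27 (adjusted p = 1.2e-09). Lrrn3, Moxd1, Adamts15, Vnn1 and Cldn11, which encodes a tight junction protein, were likewise above vehicle with TBT, by 2.60 to 3.01, and not called against vehicle with Rosi, at -0.33 to 0.35.

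The remaining 3 belong to blood cells. Cd5l, a secreted macrophage protein, had log2 values of 9.95, 9.25, 8.72 and 8.95 with TBT, against 4.97, 8.32, 5.72 and 5.90 with Rosi. The TBT arrays were close to the vehicle arrays, which ran from 8.43 to 10.30, and the Rosi array of pool 15 stood well above the other 3. The difference was 2.99 (SE 0.65, limma adjusted p = 0.000248). Marco, a scavenger receptor of macrophages, was higher by 2.82, and the cytokine receptor Il21r by 2.52.

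For all 10, TBT did not differ from LG268 at the threshold. TBT minus LG268 ran from -0.79 for Marco to 0.97 for Fam107a, where the adjusted p was 0.0861. Over all genes, 499 differed between TBT and LG268 (3.35%), 380 of them higher with TBT (2.55%) and 119 lower (0.798%). That count was 751 with the pool as a block, 5 in a fit of the day 4 arrays alone, 266 without pool 15, 39 without pool 19 and 11 without pool 20. Among fat and mitochondrial genes the TBT arrays were the higher ones: Plin1 exceeded its LG268 level by 1.80 (adjusted p = 0.00968), Ppargc1a by 1.56 (adjusted p = 0.00183), Cd36 by 0.90 (adjusted p = 0.000678) and Ndufs1 by 0.66 (adjusted p = 0.00342). The bone enzyme Alpl was below its LG268 level, by -1.21 (adjusted p = 0.00704).

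Genes that LXR activates were among those higher with TBT. Of 16 LXR targets tested 7 were higher and 1 was lower, with a median of 0.04. With the pool as a block, and without pool 19, 2 were lower. Abca1, which exports cholesterol from cells, had log2 values of 10.76, 10.46, 10.57 and 10.48 with TBT, against 9.56, 9.43, 9.63 and 9.65 with Rosi. The groups did not overlap, and the difference was 1.00 (SE 0.16, limma adjusted p = 3.02e-06). Against vehicle Abca1 was higher with TBT by 1.80 (adjusted p = 4.5e-11) and with Rosi by 0.80 (adjusted p = 5.5e-05).

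Apoc2, the apolipoprotein that activates lipoprotein lipase, had log2 values of 8.42, 8.14, 7.25 and 7.26 with TBT and 5.58, 6.68, 5.85 and 5.60 with Rosi. All TBT arrays were above all Rosi arrays, by 1.84 on average (SE 0.27, limma adjusted p = 7.52e-07). Against vehicle it was higher with TBT by 1.19 (adjusted p = 0.0014) and lower with Rosi, at -0.65 (adjusted p = 0.047). Apoe was higher by 1.24, Abcg1, another sterol exporter, by 1.01, and Mylip, which degrades the LDL receptor, by 0.99. Cd5l, given above, and Smpdl3a, higher by 0.48, completed the 7. Smpdl3a lost its call without pool 12 (adjusted p = 0.101), 19 (0.073) or 20 (0.0776). The 1 lower gene was Tmem135, at -0.91. Smpdl3a and Tmem135 were named after their values were seen. The lipogenic LXR targets Srebf1 and Scd1 were among the 8 that were not called. Against vehicle, 14 of the 16 were higher with TBT and 0 lower, while 10 were higher and 5 lower with Rosi. Apoe, Mylip and Smpdl3a were among those lower with Rosi, at -0.65, -0.52 and -0.65. With TBT, Apoe and Mylip were above vehicle by 0.59 and 0.47, and Smpdl3a was not called, at -0.17. Abcg1 was above vehicle with TBT by 1.40 and not called with Rosi, at 0.39. Both comparisons use the same vehicle arrays.

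The RXR dimers bind repeats of the core AGGTCA, with 1 base between the copies for PPAR and 4 for LXR. The start regions of Apoc2 and Abca1 are shown as 1 apolipoprotein and 1 sterol exporter of the list. Of the 15 LXR targets with a window, Apoc2 was the only 1 that held a match to any motif searched. Both are the 250 bases before the start from RefSeq, build GRCm38.p6, read 5′ to 3′ on the minus strand, at chr7:19677942-19678191 for Apoc2 and chr4:53159896-53160145 for Abca1. Capitals mark letters that match the core or a repeat of it.
Apoc2: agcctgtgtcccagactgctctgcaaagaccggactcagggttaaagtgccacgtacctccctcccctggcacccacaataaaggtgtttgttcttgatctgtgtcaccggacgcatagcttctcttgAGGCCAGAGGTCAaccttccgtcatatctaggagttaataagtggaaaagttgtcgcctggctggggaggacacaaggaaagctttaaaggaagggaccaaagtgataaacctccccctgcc
Abca1: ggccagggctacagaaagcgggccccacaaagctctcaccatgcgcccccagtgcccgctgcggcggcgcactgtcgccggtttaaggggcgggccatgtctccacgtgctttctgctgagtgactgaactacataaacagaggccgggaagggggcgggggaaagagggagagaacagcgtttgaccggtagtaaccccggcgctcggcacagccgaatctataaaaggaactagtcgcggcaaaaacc
The search was for AGGTCA, and for AGGNCA, where N is any base, repeated after 1 base or after 4 bases, on both strands. The Apoc2 window holds a match to the repeat after 1 base that begins 122 bases before the start, and the AGGTCA marked there lies inside it. Another AGGTCA of Apoc2 lies after the start, outside the printed bases. The Abca1 window holds no match to any of the 3 motifs. In windows from 250 bases before to 50 bases after the start, the repeat after 1 base occurred in 0.336% of genes higher with TBT, 0.41% of genes lower with TBT, 0.327% of genes tested and 0.451% of all genes with a window. The repeat after 4 bases occurred in 0.168%, 0.319%, 0.232% and 0.292% of the same sets, and AGGTCA in 14.3%, 16.8%, 15.1% and 18.1%. A match says only that the letters are present. The absence of a match does not show that a receptor site is missing. Sites that depart from these letters in any fixed position were not searched for.

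Of 9 retinoid targets 4 were higher and 1 was lower (median -0.11), and 0 were lower without pool 19 or without the Rosi array of pool 15. Cyp26b1, which degrades retinoic acid, had log2 values of 6.85, 7.13, 6.74 and 6.76 with TBT, against 5.91, 5.88, 6.15 and 6.01 with Rosi. The groups did not overlap, and the difference was 0.88 (SE 0.21, limma adjusted p = 0.000614). The retinal reductase Dhrs3 and the receptors Rara and Rarg were higher by 0.55, 0.49 and 0.54. Against vehicle, Cyp26b1 was lower with Rosi, at -1.16 (adjusted p = 6.9e-06), and was not called with TBT, at -0.28.

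Bone genes were mostly lower than in vehicle cultures with both ligands, and for most of them no difference between TBT and Rosi was called. Of 20 osteoblast genes 15 were lower than vehicle with TBT (median -1.10) and 16 with Rosi (median -1.64), from comparisons that use the same vehicle arrays. In the vehicle arrays the list's mean level was 7.63 in pool 12 and 8.77, 8.78 and 9.16 in pools 15, 19 and 20. In the same order it was 7.40, 7.89, 7.24 and 7.28 with TBT and 7.20, 7.26, 6.99 and 6.88 with Rosi. The gap to vehicle was thus smallest in pool 12. Between TBT and Rosi, 6 were higher with TBT and 1 was lower (median 0.38), beside 20.1% higher and 18% lower over all genes. With a pool left out, 4 to 8 were higher. For 8 of the 20 the TBT arrays lay wholly above the Rosi arrays, against 15.2% of all genes, and for 1 wholly below. Sp7, the osteoblast transcription factor also called osterix, had log2 values of 6.34, 6.89, 5.65 and 5.72 with TBT, against 5.63, 6.12, 5.04 and 5.27 with Rosi. TBT was above Rosi in each pool but the groups overlapped, and the difference of 0.63 was not called (95% interval -0.26 to 1.53). Alpl, the mineralisation enzyme alkaline phosphatase, differed by 0.40 (-0.16 to 0.95), and bone sialoprotein, Ibsp, by -0.17 (-1.42 to 1.07). Bglap, which encodes osteocalcin, was near the table's median in all 8 arrays, from 3.75 to 4.57, and the osteocyte gene Dmp1 ran from 4.37 to 9.09 with TBT and from 4.60 to 7.88 with Rosi, highest in pool 15 of both.

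The bone genes that did differ include Bmp4, a bone morphogenetic protein, with log2 values of 8.57, 9.13, 8.41 and 8.44 with TBT and 7.48, 7.13, 7.29 and 7.35 with Rosi. All TBT arrays were higher, by 1.33 on average (SE 0.25, limma adjusted p = 4.02e-05). Phex, a peptidase of bone mineralisation that stands in both the osteoblast and the osteocyte list, was higher by 2.00, and was the 1 of 10 osteocyte genes called. The collagen gene Col1a2 was higher by 0.67, and Bmp3, which antagonises other bone morphogenetic proteins, was lower (-1.58). Of 23 matrix genes 11 were higher and 1 was lower (median 0.55), with 7 higher without pool 15 or pool 20. Ogn, a small proteoglycan, was higher by 1.40 and the collagen gene Col3a1 by 0.80. The lower one, Col6a3, at -1.24, was named after its values were seen.

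Of 15 osteoclast genes 5 were higher and 1 was lower (median 0.28), with 3 higher without pool 15 or 19 and 2 without pool 20. Over all genes, 20.1% were higher and 18% lower. Nfatc1, the transcription factor of osteoclast formation, had log2 values of 7.79, 7.74, 7.68 and 7.66 with TBT, against 7.15, 7.39, 6.94 and 7.30 with Rosi. The groups did not overlap, and the difference was 0.52 (SE 0.08, limma adjusted p = 1.33e-06). Tnfrsf11a, the receptor RANK, was higher by 0.82. Tcirg1, a proton pump subunit, was higher by 1.14, a call lost without pool 20 (adjusted p = 0.0594). Car2, a carbonic anhydrase, was lower (-1.65). The resorption enzymes Acp5 and Ctsk were not called, at -0.56 (limma adjusted p = 0.0876, and 0.0454 with the pool as a block) and 0.55 (0.126, and 0.025 with the block). Tnfsf11, which encodes the osteoclast-inducing ligand RANKL, was higher by 0.76 (adjusted p = 0.015, and 0.149 without pool 15), while its decoy Tnfrsf11b differed by 0.13 (95% interval -0.51 to 0.77).

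Genes of marrow stromal progenitors were higher with TBT as a group. Of 16 tested, 14 were higher and 0 lower, with a median of 1.08. With a pool left out, 10 to 13 were higher. In the main set of arrays, 13 of the 16 had the TBT arrays wholly above the Rosi arrays, against 15.2% of all genes. Pdgfra, a growth factor receptor of mesenchymal progenitors, had log2 values of 9.90, 10.02, 9.99 and 9.87 with TBT, against 8.29, 8.64, 7.54 and 7.43 with Rosi. The TBT arrays lay close together and above all Rosi arrays, and the difference was 1.97 (SE 0.19, limma adjusted p = 1.4e-10). Foxc1, a transcription factor of the stromal niche, was higher by 1.31. Cxcl12, the chemokine that holds blood stem cells in marrow, was higher by 0.99, the ligand Gas6 by 1.10 and stem cell factor, Kitl, by 1.05. Against vehicle, 10 of the 16 were lower with Rosi (median -0.77), while 4 were higher and 0 lower with TBT (median 0.26). Kitl was named after its values were seen.

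Of 24 cell division genes 20 were higher with TBT than with Rosi and 0 lower (median 0.65). The count was 23 without pool 15, 16 without pool 19, 14 without pool 20 and 15 in a fit of the 8 arrays alone. Plk1, a mitotic kinase, had log2 values of 7.88, 7.16, 7.73 and 7.61 with TBT and 7.13, 6.73, 6.44 and 6.58 with Rosi. All TBT arrays were above all Rosi arrays, and the difference was 0.88 (SE 0.16, limma adjusted p = 1.72e-05). The replication helicase gene Mcm4 was higher by 0.75 and the checkpoint kinase Bub1b by 0.73. Against vehicle, 20 of the 24 were lower with TBT (median -0.56) and 24 with Rosi (median -1.15).

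**Figure D4:**
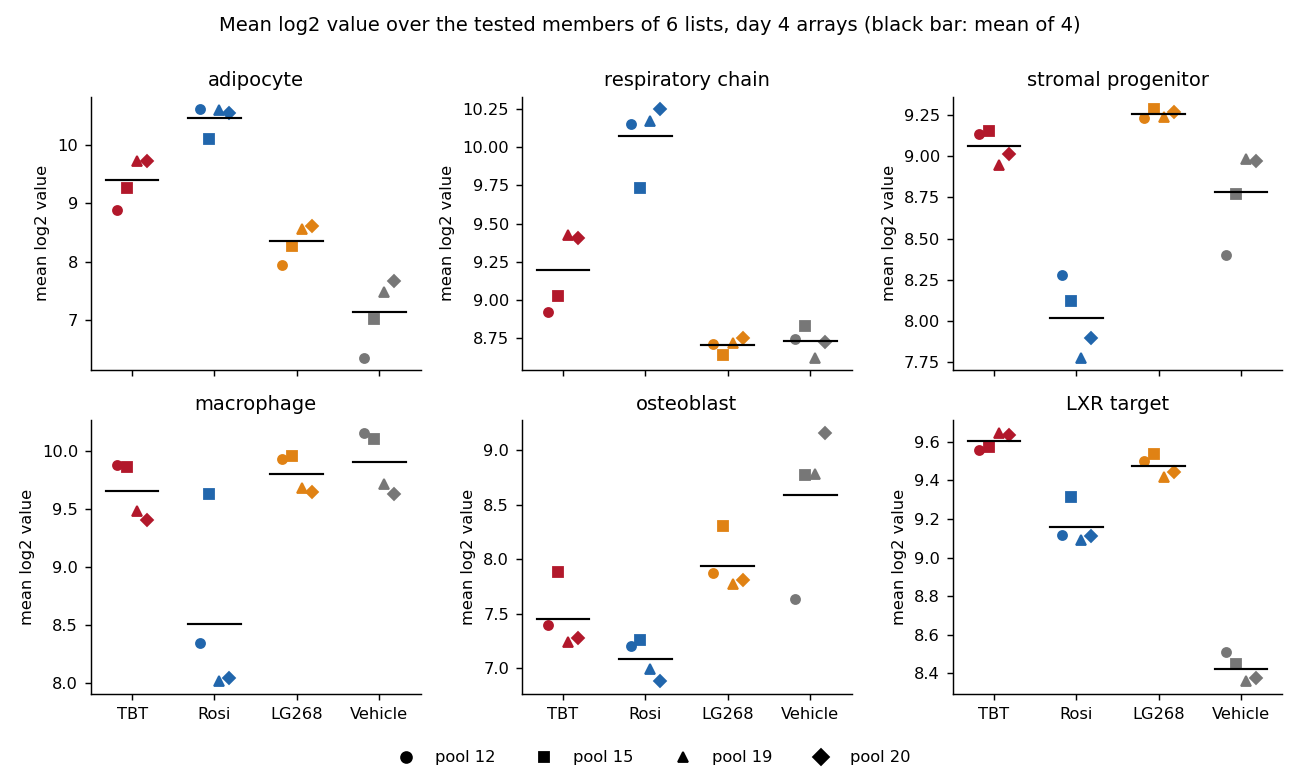
Mean log2 value over the tested members of 6 gene lists (y axis of each panel) on each day 4 array, in the order TBT, Rosi, LG268 and vehicle. Symbols give the pool and black bars the mean of 4 arrays. The Rosi array of pool 15 stands among the TBT arrays for macrophage genes and lies below the other Rosi arrays for respiratory chain and adipocyte genes.

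Markers of other marrow cells were present in these cultures, which the labels call stromal. Of 22 macrophage genes tested 17 were higher with TBT and 0 lower (median 0.98). C1qb, a complement protein made by macrophages, ran from 11.88 to 12.01 on the 4 TBT arrays, against 11.10, 11.82, 10.69 and 10.79 with Rosi. Rosi pool 15 lay close to the TBT arrays and the other 3 well below, with a difference of 0.85 (SE 0.12, limma adjusted p = 4.78e-07). C1qc and the engulfment receptor Mertk were higher by 1.12 and 0.97. The mean level of the macrophage list was 9.40 to 9.88 over the TBT arrays, 8.01 to 9.63 over the Rosi arrays and 9.63 to 10.16 over the vehicle arrays. Against vehicle, 21 of the 22 were lower with Rosi, and 1 was higher and 2 were lower with TBT. The part of macrophage RNA in the other differences was not tested.

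Interferon-induced genes were higher in part. Of 19, 9 were higher with TBT and 0 lower (median 0.83), but 5 without pool 12 or pool 19 and 4 without pool 20. Bst2, an antiviral membrane protein, was higher by 1.00 (adjusted p = 0.00118), Irf9, a signal transducer of interferon, by 0.87 (0.00472) and Oasl2 by 1.14 (0.01). Irf7 had 9.83, 10.20, 9.86 and 9.55 with TBT and 8.24, 9.79, 8.42 and 8.23 with Rosi. Rosi pool 15 again fell among the TBT arrays, and the difference of 1.19 (SE 0.44, limma adjusted p = 0.0273) was lost without pool 12 (0.088), 19 (0.109) or 20 (0.0876). Isg15 was not called at 0.69 (95% interval -0.25 to 1.63). Of 16 inflammation genes 4 were higher and 0 lower (median 0.36), and 2 without pool 12, 19 or 20. The share higher over all genes was 20.1%. Il1rn, which encodes the interleukin 1 receptor antagonist, was higher by 1.54 (adjusted p = 1.62e-09) and the adhesion molecule Icam1 by 1.04 (adjusted p = 0.00118).

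The other cell type lists were short, and several of their counts changed between fits. These counts stand beside 20.1% higher and 18% lower over all genes. Of 15 neutrophil genes 4 were lower (median -0.89): S100a8 (-1.51), S100a9 (-1.41), Retnlg (-1.69) and Mmp8 (-1.41). The list's mean level was 6.19 to 7.42 with TBT and 6.84 to 7.84 with Rosi, and 0 of the 15 were lower without pool 15, 19 or 20, 7 without pool 12 and 2 without the Rosi array of pool 15. Of 12 endothelial genes 4 were higher and 1 was lower, with 7 higher under the pool block, 0 without pool 15 and 1 without pool 19 or 20. The vascular cadherin Cdh5 was at 9.96, 9.72, 9.60 and 10.12 with TBT and 9.61, 7.04, 9.34 and 9.43 with Rosi. Rosi pool 15 was far below the other 7 arrays. The call for Cdh5 (difference 1.00, adjusted p = 0.025) was lost without that array (limma adjusted p = 0.308), as was that of the endothelial sialomucin Emcn (0.331). Of 7 B cell genes only Cd79b was higher, by 0.89, with 4 under the block and 0 without pool 19 or 20. Of 9 T and NK cell genes Cd4 and Ncr1 were higher, by 1.49 and 1.19, with 0 without pool 19 and 1 without pool 20. Without pool 15, or without its Rosi array, 4 were. Of 12 smooth muscle genes 4 were higher and 0 lower, with 2 higher without pool 15. Of 5 megakaryocyte genes Itga2b was lower (-0.73), with 2 lower without pool 15 and 4 without its Rosi array. Of 3 erythroid genes Epor was higher, by 0.65. Of 11 cartilage and tendon genes 1 was higher and 1 lower, and of 9 mast cell genes 0 were called by limma.

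Stress genes were lower with TBT. Of 15 genes of endoplasmic reticulum stress and that response 9 were lower and 0 higher (median -0.39). Trib3, a pseudokinase induced by stress, had log2 values of 4.63, 4.50, 4.98 and 5.02 with TBT, against 5.31, 7.44, 7.94 and 8.09 with Rosi. All Rosi arrays were above all TBT arrays, that of pool 12 by the least, and the difference was -2.41 (SE 0.42, limma adjusted p = 1.12e-05). Ddit3, the stress transcription factor CHOP (-1.99), asparagine synthetase, Asns (-1.50), and the chaperone Dnajb9 (-1.31) were lower too. Against vehicle, Trib3 and Ddit3 were higher with Rosi, by 2.45 and 2.00, and did not pass the test with TBT, at 0.04 and 0.00. Their TBT arrays lay within the range of the vehicle arrays.

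Genes that answer to metals, oxidants and foreign compounds showed no common direction. Of 9 metal response genes 1 was higher and 0 lower (median -0.12). The metallothioneins Mt1 and Mt2 differed by -0.21 (95% interval -0.44 to 0.02) and -0.27 (-0.78 to 0.24), and haem oxygenase, Hmox1, by 0.33 (0.02 to 0.64, adjusted p = 0.0826). The heat shock gene Hspa1a was the 1 that was higher, by 0.59, a call lost without pool 19 (adjusted p = 0.133) or 20 (0.0719). Of 14 NRF2 targets 2 were higher, Nqo1 by 0.60 among them, and 3 lower, with 1 lower without pool 19 or 20. Of 11 xenobiotic genes 3 were higher and 3 lower. Cyp1b1, an oestrogen-hydroxylating P450 of stromal cells, had log2 values of 10.30, 10.38, 10.35 and 10.32 with TBT and 8.95, 9.08, 8.47 and 8.54 with Rosi, a difference of 1.58 (SE 0.10, limma adjusted p = 3.12e-15). Of 16 glucocorticoid targets 3 were higher, Errfi1 by 1.24 the most, and 2 lower (1 without pool 19 and 0 without pool 20), while Fkbp5, the classical reporter of dexamethasone action, differed by 0.18 (-0.24 to 0.61). Of 20 nuclear receptors 3 were higher and 6 lower with TBT. The counts in these lists stand beside 20.1% higher and 18% lower over all genes.

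At day 1 the gap between TBT and Rosi was narrow and lay partly in other genes. Only 389 genes differed then (2.61%), 141 higher (0.946%) and 248 lower (1.66%) with TBT. Of these, 254 were also called at day 4, which is 65.3% of the day 1 calls and 4.47% of the day 4 calls, and 31 of the 254 had the opposite sign. The difference changed between the days for 3017 genes (20.2%, with 11% upward and 9.21% downward), with 1478 such genes without pool 19 and 1168 without pool 20. The 2 days share pools but no array.

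Several fat cell markers showed a wider gap early. Of 24 adipocyte genes 16 were lower with TBT at day 1, with a median of -1.27. Fabp4 was lower at day 1 (-0.99, limma adjusted p = 0.0017) and differed by -0.17 at day 4, a change of 0.83 (adjusted p = 0.0309). Plin1 was lower at day 1 (-3.03), and its difference changed by 2.06 (adjusted p = 0.0115). Adipoq was lower at day 1 (-1.57), and its difference changed by 1.50 (adjusted p = 0.0173). Over the 24 genes the difference became less negative or more positive for 7 and more negative for 3 at the threshold.

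The respiratory chain differed at day 4 and not at day 1. None of the 23 respiratory chain genes was called at day 1 (median -0.13), and for all 23 the difference was more negative at day 4. For Ndufs1 the change was -0.86 (adjusted p = 0.00125). Of 16 thermogenic genes 2 were lower at day 1, and the difference moved downward for 9 and upward for 2. Of 16 stromal progenitor genes 3 were higher at day 1, and the difference moved upward for 9 and downward for 0. Elovl3, Cyp2e1, Tmem45b and Pck1 differed by between -0.18 and 0.24 at day 1, with changes of -6.91, -5.97, -5.82 and -4.03 by day 4, whereas Adcy5 was already lower at day 1 (-3.38, adjusted p = 9.91e-14). Its change of -0.43 did not pass the test (adjusted p = 0.401). Pdgfra differed by -0.04 at day 1 and Apod by 0.18, with changes of 2.01 and 2.91. The LXR target Abca1 was already higher with TBT at day 1, by 1.52 (adjusted p = 2.55e-08), and Cyp26b1 by 1.75 (adjusted p = 2.77e-07). The gap of Cyp26b1 narrowed by day 4, with a change of -0.86 (adjusted p = 0.0294), and that of Abca1 changed by -0.52 (adjusted p = 0.1).

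**Figure D5:**
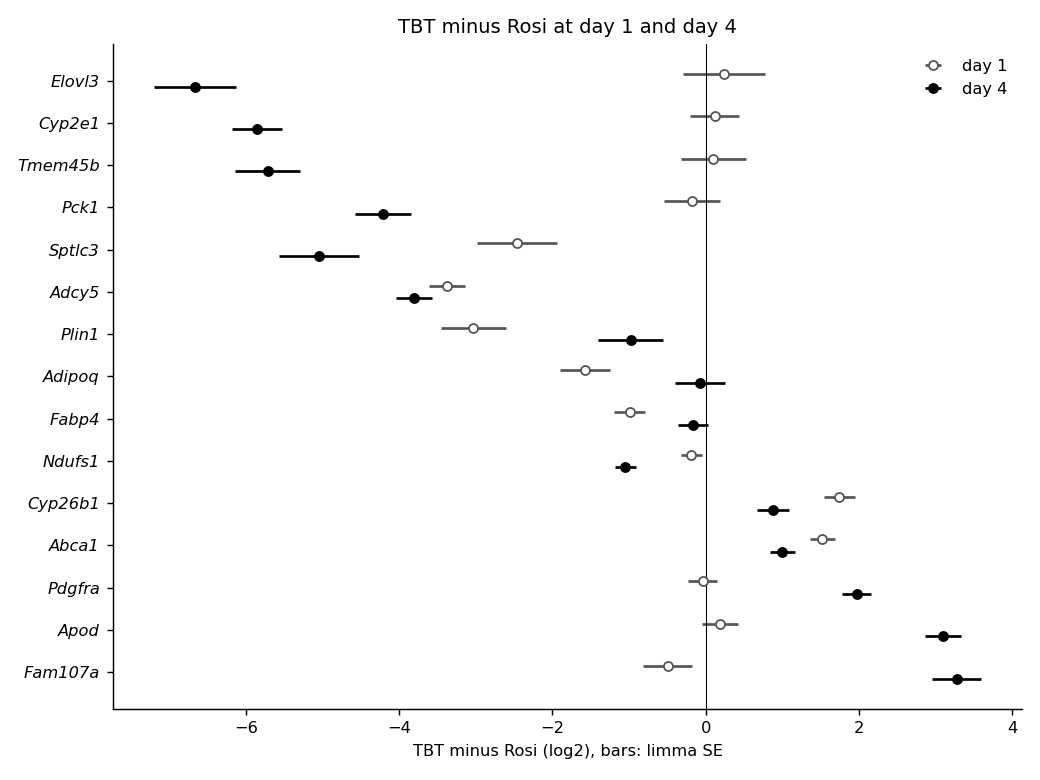
TBT minus Rosi (log2, x axis) at day 1 (open circles) and day 4 (filled circles) for 15 genes (y axis), with bars of 1 limma standard error. Adcy5 and Abca1 are apart from 0 on both days, Fabp4, Adipoq and Plin1 lie farther below 0 at day 1, and Elovl3, Cyp2e1 and Fam107a are near 0 at day 1 and far from it at day 4.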

How the data were processed

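The platform was the Affymetrix Mouse Gene 2.0 ST array. A table of log2 values was deposited, for which the submitters' processing notes name oligo and R 3.3.1. How background was corrected and arrays were normalized is not given in the sources used here. Of 41345 probe sets, 23521 carried 1 gene, 1814 several and 16010 were unnamed. Each gene was taken from its probe set with the highest mean, and 14911 genes with at least 4 of 52 arrays above the table's median of 4.05 were tested. The precision rests on 4 arrays a group.

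Groups came from sample titles. limma 3.58.1 (R 4.3.3) fitted 13 group means to all 52 arrays, with two-sided moderated tests and Benjamini-Hochberg adjustment over all genes at 0.05. The test was tried first on simulated data, with arrays drawn independently and without pool effects. It found 46% of changes of 0.5 and 100% of changes of 1 on the log2 scale. Of its calls, 2.27% were unchanged genes. How it behaves where groups share pools was not tested. Same-numbered arrays were read as 1 pool from shared titles and source names and from the growth protocol. Their deviations from the group means correlated at -0.0628, 0.204, 0.433 and 0.44 in pools 12, 15, 19 and 20, but unmatched pairs reached as much (0.586 for TBT 12 with Rosi 15, 0.465 for TBT 20 with Rosi 19), so the correlations do not set the pairs apart. Alternatives were a pool block, fewer arrays, cyclic loess, other filters and probe sets, and leaving out each pool or the Rosi array of pool 15, the last chosen after seeing the data.

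Named genes were the 10 largest differences each way with the same sign in 4 pools (unnamed loci and antibody genes passed over), from each list up to 4 genes of smallest adjusted p, and a set of key genes, and others as stated in the text. Members and lists were chosen with earlier results of these data known. Motifs were searched in RefSeq promoter windows on both strands.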

Additional observations from a re-analysis of the deposited data

Results flagged for a closer look

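Over the named genes, 28 of 254 groups of 4 arrays had 1 array whose gap to the nearest other was large for the group's range, where chance marks about 1 in 20. Of these, 10 lay in the TBT group and 16 were the Rosi array of pool 15. In the TBT group the arrays of pool 12 for Adcy5 (log2 value 4.02), Bub1b (6.36), Hmox1 (10.66), Mcm4 (8.06), Moxd1 (5.68) and Rara (7.14) stood off, as did those of pool 15 for Apoe (9.20), Col1a2 (11.05) and Dmp1 (9.09) and of pool 19 for Emcn (7.77). In the Rosi group the array of pool 15 stood off for Abcg1 (9.91), Acaa1b (7.67), Bckdhb (9.10), Cdh5 (7.04), Cidea (6.45), Dgat1 (9.28), Gpam (9.23), Hsd17b4 (10.48), Irf7 (9.79), Isg15 (8.42), Lpl (11.99), Ndufs1 (9.38), Oasl2 (9.68), Pex16 (8.22), Pparg (9.90) and Suclg1 (8.22). That of pool 12 stood off for Adamts15 (7.71) and Cd79b (6.11). The array of pool 15 was lower than the other Rosi arrays for the fat and mitochondrial genes and higher for the interferon genes and Abcg1.

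The difference TBT minus Rosi changed between day 1 and day 4, tested as an interaction in limma, for 13 of 15 genes in which it was examined, against 20.2% of all genes. Several of the 15 were picked for their large day 4 differences, which favours such a change, so the count of 13 is a description. The day 4 difference exceeded that of day 1 by 3.77 for Fam107a, 2.91 for Apod, 2.06 for Plin1, 2.01 for Pdgfra, 1.50 for Adipoq and 0.83 for Fabp4. It was below that of day 1 for Elovl3 (-6.91), Cyp2e1 (-5.97), Tmem45b (-5.82), Pck1 (-4.03), Sptlc3 (-2.58), Ndufs1 (-0.86) and Cyp26b1 (-0.86). For Plin1, Adipoq and Fabp4 the difference was nearer 0 at day 4.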

How the results depend on the processing

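The count of 5681 genes between TBT and Rosi was 6373 with the replicate block (pool), 4331 with the 8 arrays alone, 4805 with the day 4 arrays, 5746 after cyclic loess and 4107 to 5570 with a pool left out. The count for the change between days (3017) was 3773 with the block and 1168 to 2882 with a pool left out, or 3825 without the Rosi array of pool 15. For TBT minus LG268 (499) it was 751 with the block, 5 with the day 4 arrays alone and 11 to 744 with a pool left out. For TBT minus vehicle (2990) it was 1676 with only the arrays compared, 1767 with the day 4 arrays and 1306 to 3044 with a pool left out. Over the named genes and alternatives, 1434 values kept their direction and side of the threshold, 61 lost the call, 10 gained it and 10 changed sign, none of the last being called. Bglap was 0.0335 after cyclic loess. With a pool or the Rosi array of pool 15 left out, the lowest and highest differences of the genes that changed sign were -0.129 and 0.0713 for Bglap, -0.41 and 0.667 for Dmp1, -0.163 and 0.0081 for Adipoq, -0.145 and 0.0491 for Pdk4, -0.0309 and 0.489 for Hmox1, and -0.293 and 0.172 for Ibsp. The block changed no call of a named gene other than Plin1, Acp5 and Ctsk. The cause of these changes was not tested. Some of these fits also used fewer arrays, and the part of that in the changes was not tested either. Signal over background was not available to judge low values.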
